A study of Mus musculus with 24 samples.

Results

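Choroid plexus tissue of 3 J20 mice and 6 wild-type (WT) mice of 11-12 months was compared on Illumina bead arrays, 1 array per labelled animal number. These 9 arrays were chosen by genotype and age in the sample titles, which write AD for J20, out of 24 arrays in the series. The other arrays hold J20 and WT mice of 3 months (4 and 3) and of 5-6 months (4 and 4), and enter here for the variance estimate and for the test of whether the genotype difference changes with age. J20 mice carry a human amyloid precursor protein transgene with familial Alzheimer disease mutations under a promoter of the platelet-derived growth factor B gene, which drives it mainly in neurons, and WT mice lack it. The labels give genotype, age and tissue for these mice. Sex, treatment and pooling of the animals were not stated.

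The choroid plexus is an epithelial sheet in the brain ventricles that secretes cerebrospinal fluid and forms the barrier between blood and that fluid. Its epithelium surrounds a stroma with leaky capillaries, pericytes, fibroblasts and macrophages, and it carries transport proteins that move ions, water, hormones and amyloid beta. It also responds to interferons, which act through JAK kinases and STAT transcription factors on a common set of target genes. The comparison asks which transcripts of this tissue differ between J20 and WT mice at the oldest age of the study.

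No transcript passed the test between J20 and WT choroid plexus at 11-12 months. In limma 0 of 11464 probes (0%) had a Benjamini-Hochberg adjusted p under 0.05, and the smallest adjusted p in limma was 0.700. Without adjustment 671 probes had a limma p under 0.05 (5.85%), 465 of them higher in J20 (4.06%) and 206 lower (1.8%). With median scaling in place of quantile normalization that split was 18 higher and 741 lower. All 3 J20 arrays lay above all 6 WT arrays on 303 probes (2.64%) and below them on 135 (1.18%), together 438 (3.82%). Differences past 2-fold ran the other way, with 9 probes higher in J20 and 88 lower, counts that were 3 and 42 without J20 animal 21 and 76 and 303 without J20 animal 28. The median difference over all probes was 0.024 on the log2 scale, and the median 95% interval, without adjustment, reached 0.45 to either side. A difference of less than about that size could not be resolved for a typical probe. With adjustment over 11464 probes larger differences did not pass either, such as Gper1 at 0.77. With a weight per array limma called 267 probes, 172 higher and 95 lower, in a fit that gave J20 animal 35 a weight of 4.69 and J20 animal 21 a weight of 0.33. The count at an unadjusted p under 0.05 was 235 without J20 animal 21 and 1222 without J20 animal 28.

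**Figure D1:**
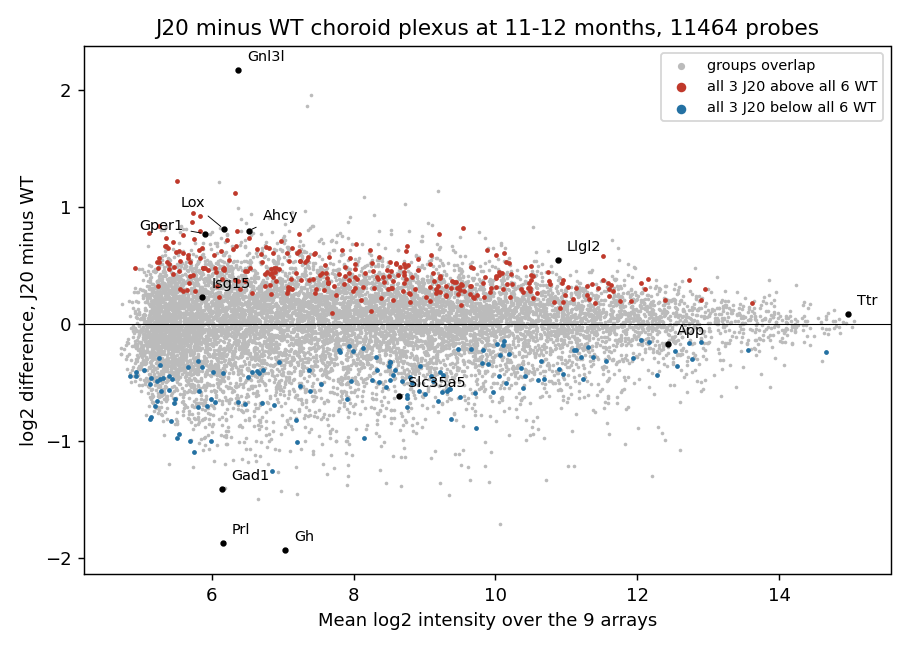
Each point is 1 of 11464 probes, with the mean log2 intensity over the 9 arrays of 11-12 months on the horizontal axis and the log2 difference, J20 minus WT, on the vertical axis. Red points (303) have all 3 J20 arrays above all 6 WT arrays, blue points (135) have them below, and black points are named genes. Gnl3l has the highest difference, 2.17, and Gh and Prl the lowest, -1.93 and -1.88, with groups that overlap for Gh and Prl.

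The 9 arrays were not equally alike. Mean intensity before processing ran from 358.4 to 669.6 on J20 arrays and from 568.7 to 765.4 on WT arrays. J20 arrays detected 9699.7 ± 427.8 probes (SD, n = 3) and WT arrays 10147.5 ± 445.5 (SD, n = 6), a difference with an exact permutation p of 0.19 (2-sided, 84 assignments, smallest possible p 0.0119). On the first principal component (48.0% of the variance) J20 animal 21 lay at 1 end, at 0.685, and WT animals 5 and 6 at the other, at -0.36 and -0.52. The highest correlation over probes of J20 animal 21 with any other array was 0.968. WT animal 13 stood apart on the second component (16.6%). BeadChip, the physical slide, was shared only in part: BeadChip 1 held WT animals 5 and 6 and no J20 animal of this age, BeadChip 2 held J20 animal 21 with WT animals 12 and 13, and BeadChip 3 held J20 animals 28 and 35 with WT animals 26 and 34. First component values followed the BeadChips. They were -0.36 and -0.52 on BeadChip 1, 0.17 to 0.685 on BeadChip 2 and -0.19 to 0.099 on BeadChip 3. Slide and genotype cannot be fully told apart here. Values within BeadChips 2 and 3 are therefore given beside the pooled ones for most leading genes and several lists.

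The labelled tissue was checked against the epithelial markers. All 29 tested markers of choroid plexus epithelium were detected on all 9 arrays, and their summed intensity was 274000 to 287700 on J20 arrays and 263700 to 291800 on WT arrays. Ttr, which encodes the thyroid hormone carrier transthyretin and is the defining product of this epithelium, had log2 levels of 14.96, 15.04 and 15.08 on J20 arrays. Its WT levels ran from 14.75 over a median of 14.99 to 15.08. The groups overlapped, and the log2 difference was 0.087 with a standard error (SE) of 0.099 (limma adjusted p = 0.753). Of the sex-linked transcripts Xist did not pass the detection filter, and 3 Y-linked genes were tested. Uty was detected on 3 of 3 J20 and 3 of 6 WT arrays, Kdm5d on 0 of 3 and 1 of 6, and Eif2s3y on 0 of 3 and 3 of 6. All 3 J20 arrays lay above all 6 WT arrays for Uty, with means of 5.75 and 5.45, close to background, while the groups overlapped for Kdm5d at 0.27 (SE 0.16) and Eif2s3y at -0.15 (SE 0.25).

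The 10 higher and 10 lower genes with the smallest unadjusted p are described next as values, since none passed adjustment. Each of them had a limma adjusted p of 0.700. Of the 10 higher genes 9 and of the 10 lower genes 5 had groups that did not overlap, beside 2.64% and 1.18% of all probes, and being chosen by p they were bound to separate well. All 20 differences had the same sign within BeadChip 2 and within BeadChip 3. These BeadChips hold every J20 array behind the choice by p, so that agreement was largely set by the choice. In a bulk sample fewer cells of a type and less RNA per cell cannot be told apart.

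Gnl3l, which encodes a nucleolar GTP-binding protein related to nucleostemin, had the widest separation. Its log2 levels in J20 mice were 7.88, 7.70 and 7.87, in animals 21, 28 and 35. In WT mice they were 5.69, 6.01, 5.67, 5.26, 5.53 and 5.71. Every J20 array was higher than every WT array by more than the whole range of either group. The difference was 2.17 (SE 0.53, 4.51-fold, limma unadjusted p = 0.000471), and 2.42 within BeadChip 2 and 2.17 within BeadChip 3. WT levels were close to background, which makes the fold uncertain. In WT animal 13 Gnl3l (5.26) lay below Agt (5.42), a gene below detection on all 9 arrays. In a limma fit of only the 9 arrays of this age it was the 1 probe called (adjusted p = 0.00064). That fit was not repeated with an array left out. In the limma fit of all 24 arrays Gnl3l did not pass, and its adjusted p there was at least 0.462 when any 1 of the 9 was left out.

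Across all 24 arrays Gnl3l, which lies on chromosome X, lay in 2 separate ranges. On 15 arrays it lay between 7.60 and 8.08, and on 9 arrays between 4.69 and 6.01, with a gap of 1.58 between them. The higher level was found in 3 of 3 J20 and 0 of 6 WT mice at 11-12 months. At 3 months it was found in 4 of 4 J20 and 2 of 3 WT mice, and at 5-6 months in 2 of 4 J20 and 4 of 4 WT mice. The level therefore separated the genotypes at 11-12 months and not at the earlier ages. The difference between J20 and WT at 11-12 months exceeded that at 5-6 months by 3.46 (limma unadjusted p = 0.00013, adjusted p = 0.9995), which did not pass.

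**Figure D2:**
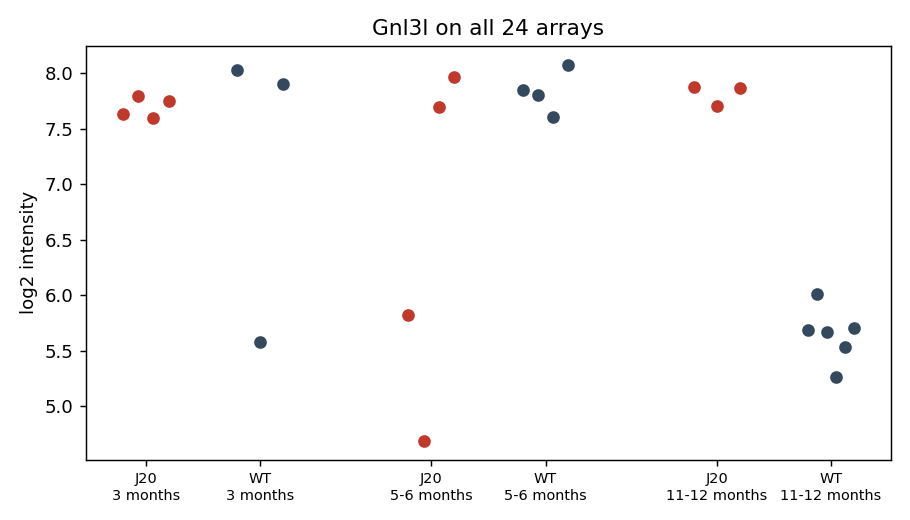
Log2 intensity of Gnl3l is shown on the vertical axis for each of the 24 arrays, 1 point per array, with J20 (red) left of WT (dark) at each age. Points fall into an upper band of 15 arrays and a lower band of 9, and at 11-12 months the upper band holds the 3 J20 arrays and the lower band the 6 WT arrays.

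Utp11, which encodes a component of the nucleolar complex that processes ribosomal RNA, had log2 levels of 10.83, 10.73 and 10.70 in J20 mice. WT levels ran from 10.24 over a median of 10.41 to 10.44. The groups did not overlap and both were narrow. The difference was 0.38 (SE 0.097, 1.30-fold, limma unadjusted p = 0.000801), and 0.41 and 0.30 within BeadChips 2 and 3. At 3 months it was 0.025 and at 5-6 months -0.069.

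Gper1, which encodes a G protein-coupled oestrogen receptor, had the smallest unadjusted p. Its log2 levels in J20 mice were 6.16, 6.52 and 6.55. WT levels ran from 5.30 over a median of 5.63 to 6.00, so the groups did not overlap, and J20 animal 21 was the closest to them. The difference was 0.77 (SE 0.16, 1.71-fold, limma unadjusted p = 0.000118). WT levels were close to background here too, which makes the fold uncertain. In WT animals 26 and 34 Gper1 (5.44 and 5.30) lay below the undetected Agt (5.45 and 5.32). It was 0.27 within BeadChip 2 and 1.17 within BeadChip 3, and 0.90 without J20 animal 21.

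Ahcy encodes the enzyme that hydrolyses S-adenosylhomocysteine in the methionine cycle. It had log2 levels of 7.08, 6.57 and 7.50 in J20 mice, against 5.92 to 6.56 in WT mice with a median of 6.27. The lowest J20 array lay just above the highest WT array. The difference was 0.80 (SE 0.22, 1.74-fold, limma unadjusted p = 0.0013), with 0.61 and 0.78 within BeadChips 2 and 3. At 3 months it was -0.37 and at 5-6 months 0.15.

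Lox, which encodes the lysyl oxidase that cross-links collagen and elastin, had log2 levels of 6.70, 6.84 and 6.58 in J20 mice. WT levels ran from 5.66 over a median of 5.85 to 6.34, where animal 26 was well above the other WT mice. No J20 array overlapped with WT. The difference was 0.81 (SE 0.22, 1.76-fold, limma unadjusted p = 0.00132), with 0.88 and 0.62 within BeadChips 2 and 3. Most WT levels lay little above those of the undetected Agt (5.19 to 5.61), so the fold is uncertain. With the log2 values quantile normalized by the authors the difference was 0.30.

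Llgl2 and Tead2 belong to the machinery of epithelial polarity and of the Hippo pathway. Llgl2, a basolateral polarity protein, had log2 levels of 11.53, 11.06 and 11.15 in J20 mice, against 10.44 to 10.84 in WT mice with a median of 10.73. The groups did not overlap, with a difference of 0.55 (SE 0.15, 1.46-fold, limma unadjusted p = 0.00159), and of 0.84 and 0.27 within BeadChips 2 and 3. Tead2, a DNA-binding partner of the co-activator YAP, had levels of 9.72, 9.51 and 9.36 in J20 mice, against 8.83 to 9.40 in WT mice with a median of 8.99. Here 1 WT array, that of animal 13, lay above the lowest J20 array. The Tead2 difference was 0.49 (SE 0.13, limma unadjusted p = 0.00133), and 0.48 within each of BeadChips 2 and 3.

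Zfp423, which encodes a zinc finger transcription factor, was measured by a pair of probes with like values. On the first probe J20 levels were 7.50, 6.98 and 7.13, against 6.17 to 6.68 in WT mice with a median of 6.61. The groups did not overlap on either probe, with differences of 0.66 (SE 0.18, limma unadjusted p = 0.00169) and 0.54 (SE 0.21, limma unadjusted p = 0.018). Within BeadChips 2 and 3 the first probe stood at 0.93 and 0.38. Fam221a had levels of 8.84, 8.13 and 8.49 in J20 mice and of 7.53 to 8.03 in WT mice with a median of 7.82, which did not overlap. Its difference was 0.69 (SE 0.18), with 1.17 within BeadChip 2 and 0.32 within BeadChip 3. Toporsl was detected on 2 of 3 J20 arrays and 0 of 6 WT arrays, so only a bound can be given: it was at least 1.07-fold higher in J20 in value. For this bound each undetected WT value was raised to the lowest detected signal of its array.

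Slc35a5, which encodes a nucleotide sugar transporter of the Golgi, led the genes that were lower in J20 mice. On the first probe J20 levels were 8.10, 8.34 and 8.27, against 8.66 to 9.12 in WT mice with a median of 8.83. All J20 arrays were below all WT arrays on both of its probes. The differences were -0.61 (SE 0.16, limma unadjusted p = 0.00071) and -0.45 (SE 0.13, limma unadjusted p = 0.0027). Within BeadChips 2 and 3 the first probe stood at -0.62 and -0.50. At the earlier ages the first probe also stood lower in J20 mice in value, at -0.21 at 3 months and -0.44 at 5-6 months.

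Tmem209, which encodes a membrane protein of the nuclear envelope, had log2 levels of 8.76, 9.04 and 9.01 in J20 mice, against 9.22 to 9.53 in WT mice with a median of 9.31. The groups did not overlap, with a difference of -0.41 (SE 0.12, limma unadjusted p = 0.00228), and of -0.50 and -0.25 within BeadChips 2 and 3. A second, dim probe of Tmem209 stood at 0.17. Vti1a, a SNARE protein of Golgi and endosome traffic, stood at -0.71 on a dim probe (J20 5.05 to 5.67, WT 5.83 to 6.40) that did not overlap between groups. Its other probes were brighter (J20 means 8.42 and 7.02) and detected on 3 of 3 J20 and 6 of 6 WT arrays. They stood at 0.062 and -0.0087. Zdhhc16, a palmitoyltransferase, stood at -0.69 with overlapping groups on a probe detected on 1 of 3 J20 arrays. It stood at 0.061 on its other, brighter probe, detected on 3 of 3 J20 and 6 of 6 WT arrays. For Tmem209, Vti1a and Zdhhc16 the probes of 1 gene thus gave different values, and for Vti1a and Zdhhc16 the brighter probes stood near 0.

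Gzmm, which encodes granzyme M, a protease known from cytotoxic lymphocytes, had log2 levels of 9.59, 10.19 and 10.07 in J20 mice. WT levels ran from 10.11 over a median of 10.65 to 11.03, and 2 WT arrays lay below the highest J20 array. The difference was -0.63 (SE 0.20, limma unadjusted p = 0.00437), with -0.98 within BeadChip 2 and -0.52 within BeadChip 3. Of 20 genes that mark lymphocytes only Cd52 and Klrb1c passed the detection filter, and Cd3e, Cd8a and Nkg7 were among those that did not. Selenoh, a nuclear selenoprotein, had levels of 10.12, 10.90 and 10.66 in J20 mice, against 10.73 to 11.44 in WT mice with a median of 11.17. Its groups overlapped, with a difference of -0.56 (SE 0.18, limma unadjusted p = 0.00521).

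The other lower genes were near background. Agt, which encodes angiotensinogen, was detected on 0 of 3 J20 and 0 of 6 WT arrays, so no fold is given. Ccdc159 was detected on 0 of 3 J20 and 6 of 6 WT arrays, and was at least 1.08-fold lower in J20 in value. Dmkn, a secreted protein of skin epithelium, was detected on 0 of 3 J20 and 2 of 6 WT arrays, and J20 arrays lay below WT arrays on 2 of its 3 probes (-0.58 and -0.68, and -0.31 on the third). Pstpip1, a cytoskeletal adaptor of blood cells, was likewise detected on 0 of 3 J20 and 2 of 6 WT arrays, and WT animal 6 lay below all J20 arrays.

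**Figure D3:**
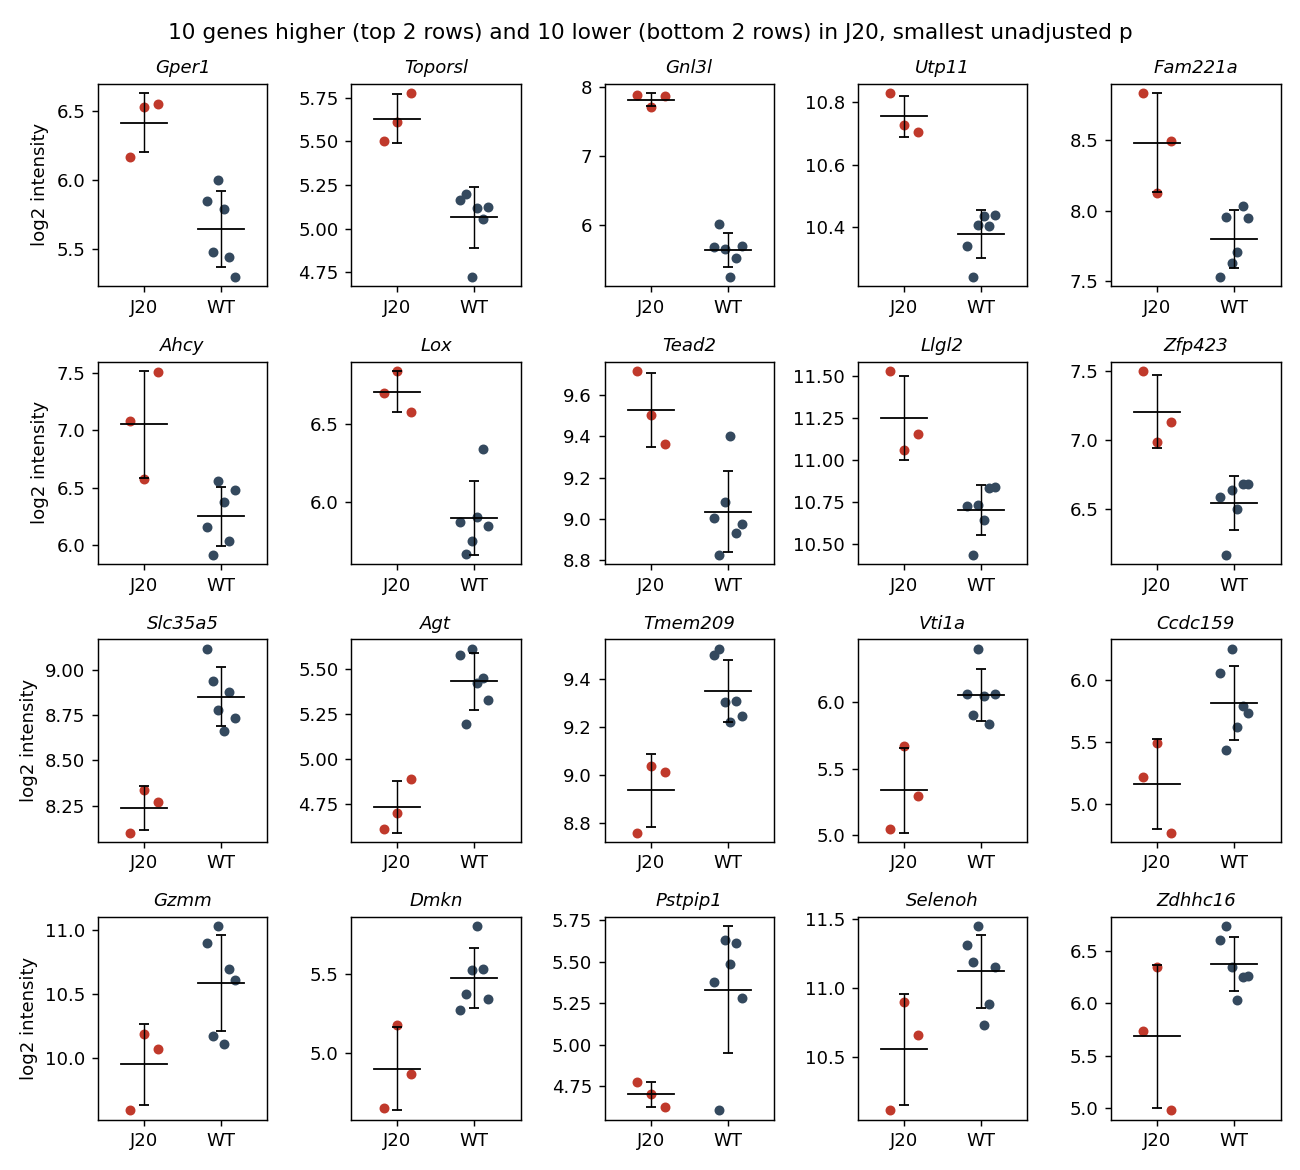
Log2 intensity of the 10 higher genes (top 2 rows) and the 10 lower genes (bottom 2 rows) is shown per array, with J20 (red, n = 3) left of WT (dark, n = 6), and each vertical axis has its own range. Horizontal lines are means and bars 1 SD, and the groups do not overlap for 9 of the 10 higher and 5 of the 10 lower genes. Agt lies below detection on all 9 arrays.

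The difference between the ages was tested for every probe. In limma 0 of 11464 probes (0%) differed between the genotype effects of 11-12 and 3 months after adjustment (smallest adjusted p = 0.789), and 393 (3.43%) had an unadjusted p under 0.05. For 11-12 against 5-6 months limma again called 0 (0%), with 159 (1.39%) at an unadjusted p under 0.05 and a smallest adjusted p of 0.9995. At 3 and at 5-6 months themselves limma called 0 probes each, with 103 (0.898%) and 144 (1.26%) at an unadjusted p under 0.05. Of the 10 higher genes 5 had the same sign at 3 months and 6 at 5-6 months, and of the 10 lower genes 6 and 8 did. Over all probes the genotype difference at 11-12 months had a correlation of -0.36 with that at 3 months and of 0.36 with that at 5-6 months, as a description of probes that share arrays and slides.

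The interferon response was followed through its targets, its receptors and the presentation genes it controls. No gene of these lists passed in limma. Of 40 type I interferon targets 19 passed the detection filter, 9 above 0 and 10 below, with a median of -0.094 against 0.049 over 8232 genes, of which 57.0% were above 0. Of these 19 members 0 had groups that did not overlap, beside 3.82% of all probes. The members with the smallest p were Irf9, which binds the DNA of interferon targets, at -0.46 (SE 0.22), Oasl2, below detection on all 9 arrays, Cmpk2, a mitochondrial nucleotide kinase, at -0.30 (SE 0.20) and Ifit2, an RNA-binding antiviral protein, at 0.34 (SE 0.23). The median was 0.026 without J20 animal 21 and -0.17 without J20 animal 28. Within BeadChips 2 and 3 it was -0.0036 and -0.24.

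Isg15, which encodes a ubiquitin-like protein attached to others upon interferon, had log2 levels of 6.15, 5.96 and 5.95 in J20 mice. WT levels ran from 5.45 over a median of 5.71 to 6.35, so 2 WT arrays were above the lowest J20 array. The difference was 0.23 (SE 0.29, limma adjusted p = 0.777), with 0.65 within BeadChip 2 and -0.20 within BeadChip 3, and with median scaling in place of quantile normalization it stood at -0.053. That scaling moved the median of all genes by -0.26, to -0.21. Irf7, the transcription factor that amplifies the type I response, was detected on 0 of 3 J20 and 0 of 6 WT arrays.

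The promoters of interferon targets hold the interferon-stimulated response element, and it is represented here by GAAA, any 2 bases and GAAA again, searched on both strands in the 250 bases before the start. A match was held by 5 of the 14 tested list members with a RefSeq promoter, against 3.46% of 27025 genes in that table. The windows of Isg15, Ifit3 and Bst2 are shown because these members are detected targets with the most matches, 3, 2 and 2, and they are from RefSeq on build GRCm38.p6. Capitals mark the matches on either strand, where adjoining matches overlap.
Isg15, chr4:156200819-156200918, minus strand: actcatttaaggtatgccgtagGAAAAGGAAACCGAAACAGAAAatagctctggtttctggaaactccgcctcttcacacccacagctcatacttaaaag
Ifit3, chr19:34583358-34583457, plus strand: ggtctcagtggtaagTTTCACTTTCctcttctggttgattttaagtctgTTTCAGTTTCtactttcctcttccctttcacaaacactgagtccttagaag
Bst2, chr8:71537518-71537617, minus strand: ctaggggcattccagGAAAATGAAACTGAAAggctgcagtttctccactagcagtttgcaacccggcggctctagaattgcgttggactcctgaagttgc
The 5 members with a match did not share a direction. Bst2, a membrane protein that tethers viruses, stood at 0.33 (SE 0.28), Isg15 at 0.23 and Stat2, the partner of Irf9, at 0.0094 (SE 0.25). Ifit3, a relative of Ifit2, stood at -0.28 (SE 0.46) and Rsad2, the antiviral enzyme viperin, at -0.26 (SE 0.42). None passed in limma, with adjusted p from 0.701 to 0.988.

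Interferon receptors and JAK-STAT genes lay mostly above 0. Of 16 genes 13 were tested, 12 above 0 and 1 below, with a median of 0.26. Groups did not overlap for 0 of them, beside 3.82% of all probes. Socs3, the feedback inhibitor of JAK signalling, had log2 levels of 7.81, 6.44 and 7.46 in J20 mice, against 6.10 to 6.74 in WT mice with a median of 6.58. Animals 21 and 35 were above every WT array, and animal 28 was below 5 of 6 of them. The difference was 0.70 (SE 0.26, limma unadjusted p = 0.0136, adjusted p = 0.700), and 0.42 without J20 animal 21. Stat3, the transcription factor of interleukin 6 signalling, stood at 0.63 (SE 0.50) on its brightest probe, 0.15 without J20 animal 21, and at 0.55 and -0.58 on its others. Of the other members Irf2 stood at 0.31 (SE 0.17), 0.077 without J20 animal 21, and the phosphatase gene Ptpn6 at 0.30 (SE 0.22). Jak2 was the member below 0, at -0.53. The list median was 0.51 within BeadChip 2, 0.043 within BeadChip 3 and 0.14 without J20 animal 21. With median scaling it turned to -0.057, which relative to all genes was 0.15, against 0.21 with quantile normalization.

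Medians of type II interferon targets and antigen presentation genes depended on how the BeadChips were treated. Of 30 type II targets 16 were tested, 10 above 0 and 6 below, with a median of 0.082, which was -0.012 without WT animal 6. It was 0.031 within BeadChip 2, -0.18 within BeadChip 3 and -0.071 with BeadChip as a block. Irgm2, an immunity-related GTPase, stood at -0.44 (SE 0.22), Gbp2 and Gbp3, guanylate-binding proteins, at -0.49 and 0.46, and the transcription factor Irf1 at 0.27. Cd74, the invariant chain of MHC class II, stood at -0.079 (SE 0.53) and the class II chain H2-Aa at 0.32 (SE 0.48, adjusted p = 0.807 in limma). Of 23 MHC class I presentation genes 13 were tested, 6 above 0 and 7 below, with a median of -0.021. It was -0.18 within BeadChip 2, -0.011 within BeadChip 3 and -0.21 with BeadChip as a block. B2m, the shared light chain of class I molecules, stood at -0.021 (SE 0.27) and the proteasome activator Psme2 at -0.62 (SE 0.41), where J20 animal 21 was lowest at 7.92 and without it Psme2 stood at -0.30.

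**Figure D4:**
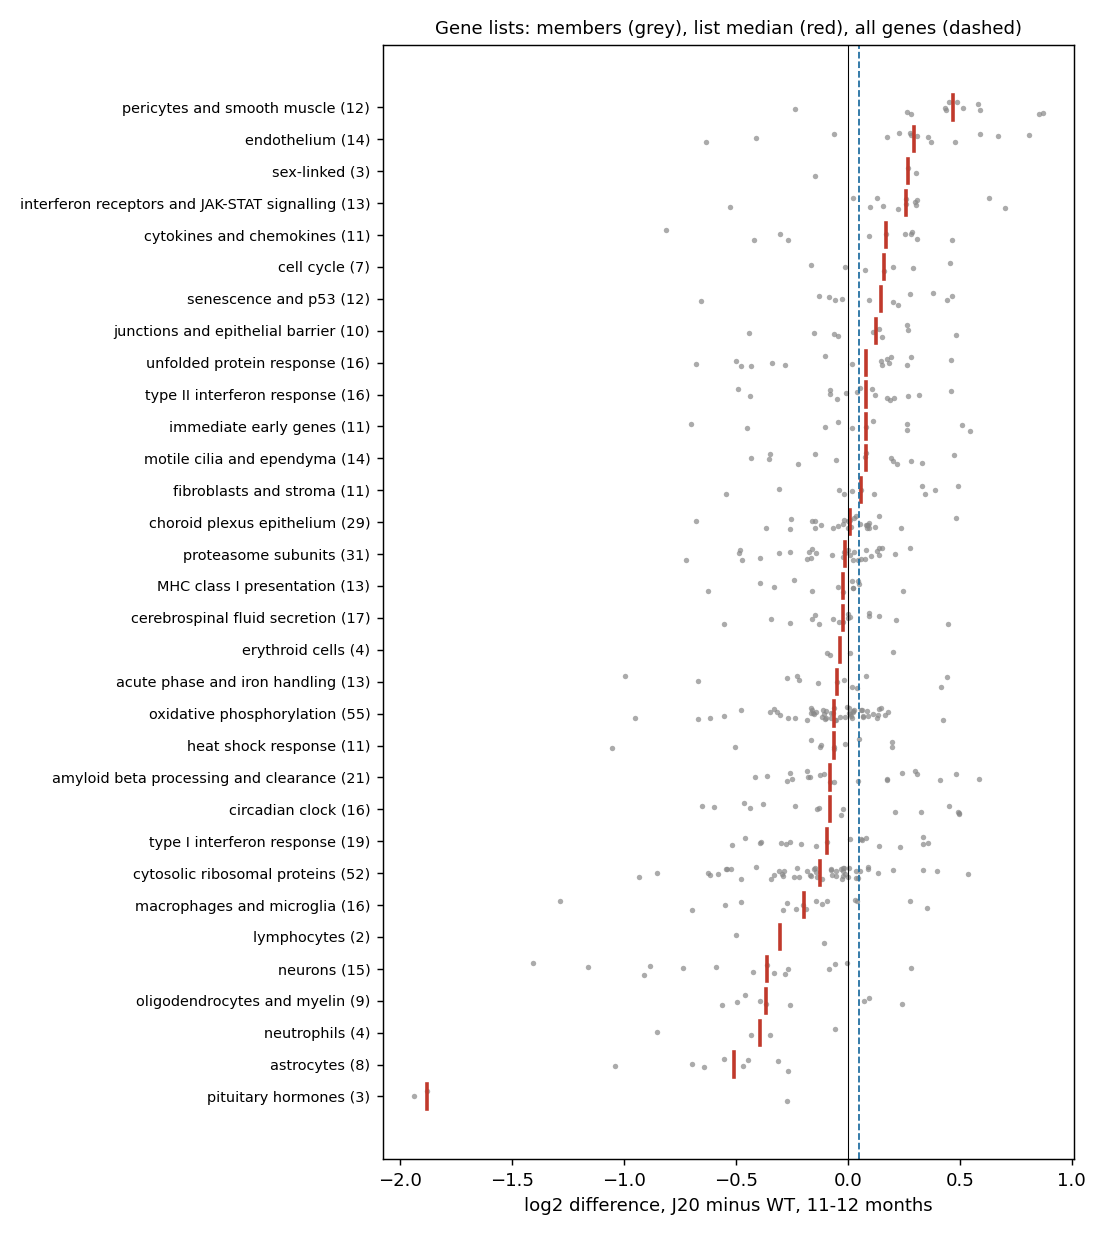
Log2 difference, J20 minus WT at 11-12 months, is on the horizontal axis for the tested members of 32 gene lists, with 1 grey point per gene, a red bar at the list median and the number tested in parentheses. The dashed line is the median of all genes at 0.049. Medians run from -1.88 for pituitary hormones to 0.47 for pericytes and smooth muscle.

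Genes of amyloid beta processing and clearance were compared because the transgene encodes the precursor. App, the mouse gene of that precursor, had log2 levels of 11.65, 12.66 and 12.67 in J20 mice. WT levels ran from 11.81 over a median of 12.65 to 12.88, and J20 animal 21 was the lowest of all 9. The difference was -0.17 (SE 0.29, limma adjusted p = 0.834), and 0.17 without J20 animal 21. No source used here says whether this probe reads the human transgene. Of the 30 genes on the list 21 were tested, 9 above 0 and 12 below, with a median of -0.077, or 0.071 without J20 animal 21. Aplp1, a relative of App, had all J20 arrays (11.56 to 11.80) above all WT arrays (11.11 to 11.52), with a difference of 0.31 (SE 0.16, limma unadjusted p = 0.0622). Sorl1, a sorting receptor for the precursor, stood at -0.41 (SE 0.20, limma unadjusted p = 0.0551), with levels of 6.77, 6.88 and 6.81 in J20 mice against 6.82 to 7.44 in WT mice. Lrp1, an endocytic receptor for amyloid beta, stood at 0.24 (SE 0.15), 0.081 without J20 animal 21, and Mme, the amyloid-degrading enzyme neprilysin, was below detection on all 9 arrays.

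Medians of the epithelial and transport genes lay near that of all genes. Of 29 tested epithelial markers 16 were above 0 and 13 below, with a median of 0.0093. Taken relative to all genes that median was -0.039, and 0.048 with median scaling. F5, coagulation factor V, stood at 0.48 (SE 0.34), the folate receptor gene Folr1 at -0.68 (SE 0.48) and the keratin Krt18 at 0.24 (SE 0.18). Of 17 tested genes of ion and water transport 7 were above 0 and 10 below, with a median of -0.023. Slc12a4, a potassium chloride cotransporter, stood at 0.45 (SE 0.20, limma unadjusted p = 0.0355), and the sodium pump subunit Atp1b1 at -0.15 (SE 0.12). Of 10 tested junction genes 6 were above 0 and 4 below, the lowest at -0.44, with a median of 0.13. F11r, Cdh1 and Cldn3, which encode adhesion and tight junction proteins, stood at 0.27, 0.48 and 0.27. Without J20 animal 21 these 3 genes stood at 0.16, 0.38 and 0.081. With median scaling, which put the median of all genes at -0.21, they stood at -0.012, 0.15 and -0.011. Foxj1, the transcription factor of motile cilia, stood at 0.48 (SE 0.21, limma unadjusted p = 0.0347), while Pifo, a protein of cilium formation, and Rarres2, which encodes the chemoattractant chemerin, stood at -0.43 (SE 0.22) and -0.35 (SE 0.20). In that list of cilia and ependyma genes 8 of 14 were above 0 and 6 below, with a median of 0.080. Without J20 animal 21 Pifo stood at -0.11 and Rarres2 at -0.16.

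Most vessel markers stood higher in J20 mice in value. Of 12 tested markers of pericytes and smooth muscle 11 were above 0, against 57.0% of all genes, with a median of 0.47, and 0.54 and 0.25 within BeadChips 2 and 3. Only 2 of these 12 markers were detected on all 9 arrays. With the log2 values quantile normalized by the authors their median was 0.15, against 0.026 over all genes. Rgs5, a pericyte regulator of G protein signalling, had log2 levels of 6.80, 5.92 and 6.19 in J20 mice, against 4.66 to 5.86 in WT mice with a median of 5.51. The groups did not overlap for Rgs5, with a difference of 0.87 (SE 0.54, limma adjusted p = 0.700), or 0.28 with the authors' values. WT levels were close to background, which makes the size of the difference uncertain. In WT animals 5 and 12 Rgs5 (4.66 and 5.56) lay below the undetected Agt (5.58 and 5.61). Abcc9 and Kcnj8, the subunits of a vascular potassium channel, stood at 0.59 and 0.43, and Pdgfrb, the receptor that recruits pericytes, at 0.49. Abcc9 was also dim, and in WT animals 5, 6 and 34 (4.85, 4.88 and 5.23) it lay below Agt (5.58, 5.19 and 5.32). Of 14 tested endothelial markers 11 were above 0, with a median of 0.30, and 0.18 and 0.12 within BeadChips 2 and 3. Pecam1, an endothelial adhesion protein, did not overlap between groups (J20 5.95 to 6.35, WT 5.53 to 5.93) on 1 probe at 0.48, and stood at -0.25 on a dimmer one. Egfl7, a factor secreted by endothelium, stood at -0.63 (SE 0.31) and -0.30 on its probes, the first at -0.086 without J20 animal 21. WT animals 5 and 6 of BeadChip 1 had the lowest vessel scores, -0.58 and -0.38 for endothelium and -0.65 and -0.56 for pericytes, where a score is the mean centred log2 level over the list. With BeadChip as a block the medians were 0.29 for pericytes and 0.087 for endothelium. Without BeadChip 1 they were 0.29 and 0.12.

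Macrophage and microglia markers stood lower in J20 mice in value. Of 24 markers 16 were tested, 4 above 0 and 12 below, with a median of -0.19. That median was -0.047 within BeadChip 2, -0.64 within BeadChip 3 and -0.34 with BeadChip as a block. Their summed intensity was 2029 to 2403 on J20 arrays and 2038 to 4519 on WT arrays, and Lyve1, Itgam, Cd163 and Ptprc were among the markers that did not pass the detection filter. Lyz2, the lysozyme of myeloid cells, had log2 levels of 5.91, 7.60 and 6.78 in J20 mice, against 6.91 to 8.89 in WT mice with a median of 8.31. The groups overlapped, with a difference of -1.28 (SE 0.64, limma unadjusted p = 0.0586) on this probe and -0.064 on a dim second one. Tyrobp, a signalling adaptor of myeloid receptors, stood at -0.69 (SE 0.28, limma unadjusted p = 0.0197), and at -0.33 without J20 animal 21, and was detected on 1 of 3 J20 and 5 of 6 WT arrays. The complement genes C1qb and C1qc stood at -0.55 and -0.48. Without WT animal 26, which had the highest macrophage score (0.77), the list median was -0.046.

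Markers of neurons, astrocytes and pituitary were highest on single WT arrays. Of 15 tested neuronal markers 14 were below 0, with a median of -0.36, and the summed intensity was 2717 to 3635 on J20 arrays and 3057 to 16210 on WT arrays. Gad1, the enzyme that makes the transmitter GABA, had log2 levels of 5.88, 5.15 and 4.60 in J20 mice, all below detection, against 5.23 to 9.86 in WT mice with a median of 6.10. The highest value, 9.86, belonged to WT animal 13, whose neuronal score was 2.21 against at most 0.046 in the other WT mice. Without WT animal 13 the neuronal median was -0.094, and with all animals it was -0.88 within BeadChip 2 and -0.29 within BeadChip 3. All 8 tested astrocyte markers were below 0, with a median of -0.51, or -0.34 without WT animal 13, and -0.87 and -0.46 within BeadChips 2 and 3. J20 astrocyte scores (-0.31, -0.45 and -0.34) lay below all 6 WT scores (-0.23 to 1.05). Only 5 of the 8 markers were detected on all 9 arrays. The score includes Agt, which was detected on none and is among the lower genes chosen by p. Slc1a3, an astrocyte glutamate transporter, stood at -1.04 (SE 0.60), and at -0.52 without WT animal 13. Gfap, the astrocyte filament protein, did not pass the detection filter.

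The pituitary hormone genes Gh and Prl, growth hormone and prolactin, carried the lowest differences of all, -1.93 (SE 1.37) and -1.88 (SE 1.25). Their levels in WT animal 5 were 12.62 and 12.69, against at most 8.43 and 6.70 in the other WT mice. Gh levels in J20 mice were 6.57, 4.61 and 6.04, within the range of those other mice but for the lowest. Without WT animal 5 the median of the 3 tested hormones was -0.69. All 4 tested neutrophil markers were below 0, with a median of -0.39, which was 0.65 within BeadChip 2, -1.30 within BeadChip 3 and -0.034 without WT animal 34. S100a8, a calcium-binding protein of neutrophils, reached 10.24 in that animal. Of the 4 neutrophil markers 0 were detected on all 9 arrays, and 5 more genes of that list did not pass the detection filter.

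**Figure D5:**
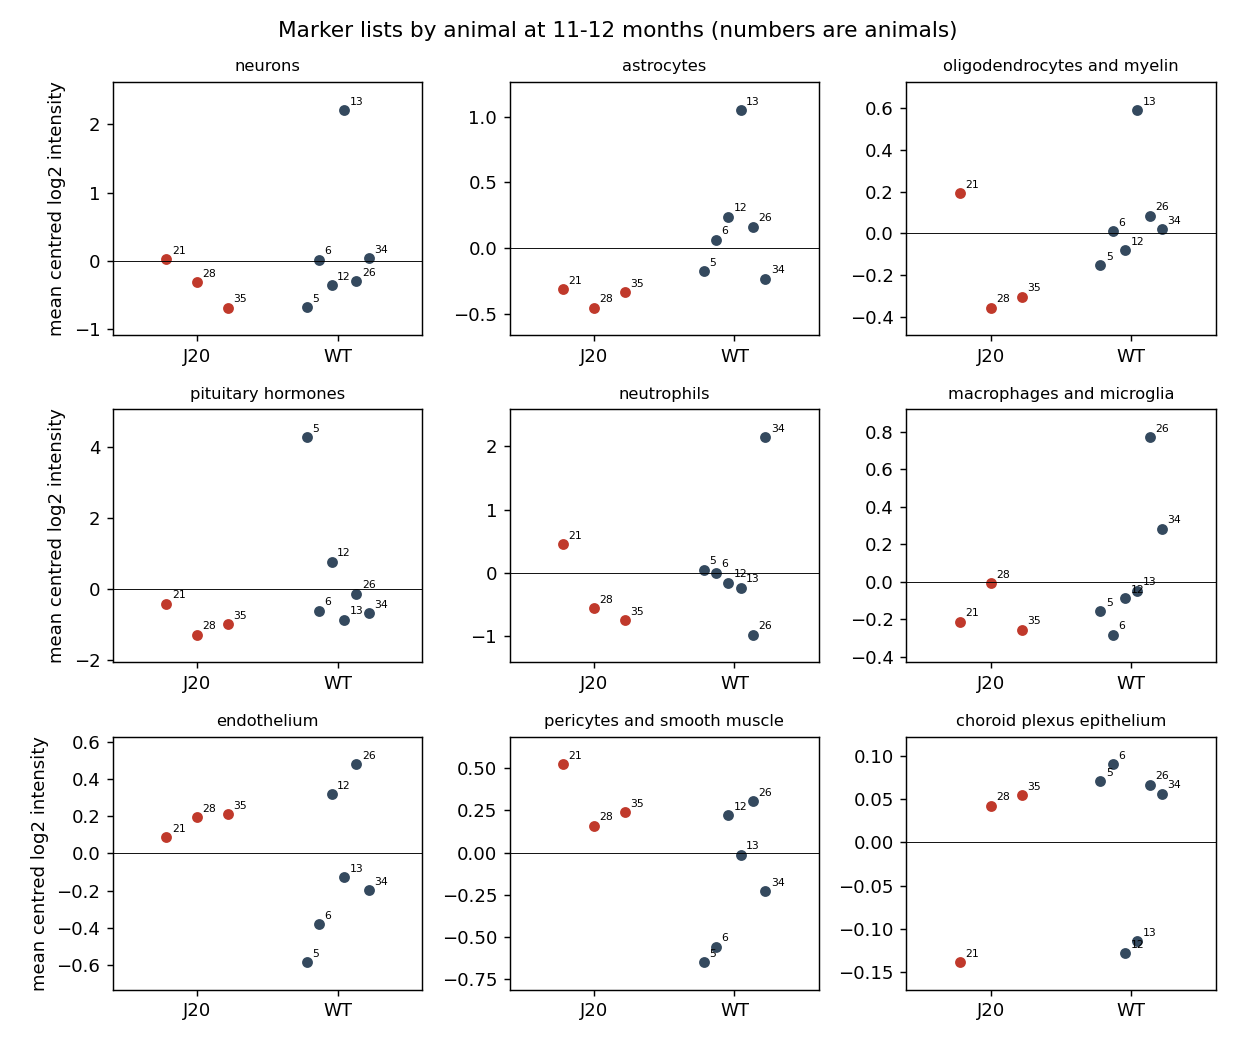
The mean centred log2 intensity of 9 marker lists is shown on the vertical axes for each animal, with J20 (red) left of WT (dark), the animal number beside each point and a separate range per panel. WT animal 13 stands apart for neurons (2.21), astrocytes (1.05) and myelin (0.59), WT animal 5 for pituitary hormones (4.27) and WT animal 34 for neutrophils (2.15).

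Housekeeping pathways were compared with longer lists. Of 52 tested cytosolic ribosomal proteins 12 were above 0 and 40 below, with a median of -0.13, and their summed intensity was 409900 to 474600 on J20 arrays and 451900 to 504700 on WT arrays. The ribosomal median was -0.030 without J20 animal 21, whose score of -0.35 was the lowest of the 9. Rpl30 had all J20 arrays (8.88 to 9.32) below all WT arrays (9.42 to 9.97), at -0.62 (SE 0.25, limma unadjusted p = 0.0198), while Rps15a stood at 0.54 (SE 0.20, limma unadjusted p = 0.013). Ribosomal protein genes have many near-identical pseudogene copies, so their probes may not be specific. Of 55 tested genes of oxidative phosphorylation 22 were above 0 and 33 below, with a median of -0.059, and -0.0049 without J20 animal 21. Of 31 proteasome subunits 15 were above 0 and 16 below, and Psmc1, an ATPase subunit, stood at -0.72 (SE 0.26, limma unadjusted p = 0.0121), and at -0.41 without J20 animal 21.

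Stress and growth genes gave single values rather than shared directions. Hspa1a, the inducible heat shock chaperone, had log2 levels of 6.41, 6.09 and 5.74 in J20 mice, against 6.27 to 8.19 in WT mice with a median of 7.20. Only 1 WT array lay below the highest J20 array, and the difference was -1.05 (SE 0.41, limma unadjusted p = 0.0187), in a heat shock list with a median of -0.063. Mcm5, a subunit of the replicative helicase, had all J20 arrays (6.27 to 6.62) above all WT arrays (5.79 to 6.22), at 0.46 (SE 0.14, limma unadjusted p = 0.00376), while the proliferation list had a median of 0.16 over 7 tested genes. The p53 target Sesn1 stood at -0.66 (SE 0.29) and the cell cycle inhibitor Cdkn2b at 0.46 (SE 0.21), which without J20 animal 21 were -0.27 and 0.25. Xbp1 and Herpud1, of the unfolded protein response, stood at -0.28 and -0.34, in a list with a median of 0.082. A second Herpud1 probe, detected on 3 of 3 J20 and 6 of 6 WT arrays, stood at -0.72 (SE 0.28, limma unadjusted p = 0.0183) with overlapping groups. Zfp36 and Egr3, immediate early genes, stood at 0.51 and 0.55, Egr3 being detected on 1 of 3 J20 and 0 of 6 WT arrays, and Egr1 stood at -0.70. Without J20 animal 21 Zfp36 stood at 0.25 and Egr1 at -1.19.

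Iron, acute phase and cytokine genes also overlapped for the most part. Lcn2, a secreted iron-binding protein of inflammation, was detected on 0 of 3 J20 and 2 of 6 WT arrays. Trf, the iron carrier transferrin, had log2 levels of 10.40, 12.67 and 12.12 in J20 mice, against 11.84 to 13.49 in WT mice with a median of 12.75. Animal 21 was the lowest by far, and the difference was -0.99 (SE 0.59), or -0.33 without it. Hmox1, which breaks down haem, stood at 0.42 (SE 0.21) and the iron exporter Slc40a1 at 0.44 (SE 0.23). Among cytokines Il18 stood at -0.42 (SE 0.19, limma unadjusted p = 0.0373), and Cxcl1, a neutrophil chemokine, was detected on 0 of 3 J20 and 3 of 6 WT arrays. Serpina1b, a protease inhibitor, and Prom2, a protein of membrane protrusions, stood at 0.24 (SE 0.20) and -0.10 (SE 0.21) between the genotypes.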

How the data were processed

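The authors deposited non-normalized probe intensities with a detection p-value for each of 25697 probes, per the file headers, and a series matrix of log2 values that they had quantile normalized, checked here to within 5e-09. RNA was labelled as biotin cRNA, per the labels' protocols. The scanner and its software were not named. From there limma 3.58.1 (R 4.3.3) did the background correction, quantile normalization and log2 step of neqc, using detection p-values and an offset of 16. A probe was kept if at least 3 of the 24 arrays had its detection p under 0.01, which left 11464 probes for 8232 genes. Symbols came from the platform table, updated for 23962 probes (1719 had none). One limma fit had a mean for each of 6 groups, with Benjamini-Hochberg adjustment across every kept probe. The replicates are 1 array per animal number, and p-values measure the spread between these arrays, whose number limits the precision. The fit was tested on simulated data. The named genes are up to 10 per direction, filled by the smallest unadjusted p, up to 4 per list by p, and a fixed set. One item is not reported here. Lists (1 probe a gene, the brightest) and members were chosen with earlier results of these data known, and carry no test. An alternative without J20 animal 21 and WT animal 13 was added after seeing the data.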

Additional observations from a re-analysis of the deposited data

Results flagged for a closer look

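Among 62 named genes and list scores looked at, 10 had a WT array of 11-12 months far from the other 5, by the gap to its neighbour against the group's range, and chance flags about 1 in 20 groups. No explanation was tested.

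WT animal 13 had the highest scores for neurons (2.21), astrocytes (1.05) and myelin (0.59) and the lowest for motile cilia (-0.20). WT animal 5 had the highest pituitary hormone score, 4.27, with the next WT mouse at 0.77. WT animal 34 had the highest neutrophil score, 2.15, with the next at 0.054. Among single genes, WT animal 26 was highest for Lox (log2 level 6.34, next 5.90), and WT animal 6 was lowest for Zfp423 (6.17, next 6.50) and Pstpip1 (4.61, next 5.28). WT animal 12 was lowest for Toporsl (4.72, next 5.06), which no WT array detected.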

How the results depend on the processing

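Of 22 alternatives for the genotype comparison, 20 gave 0 calls in limma, and the 9 that leave out 1 array each gave 0 to 0. Array weights gave 267 calls among 11464 probes. Groups did not overlap on 81 of the called probes, beside 3.82% of all probes, and called probes are bound to separate well. Among the calls were 19 of the 20 leading genes, which the same arrays had chosen by p. The fit of only the 9 arrays of this age gave 1 call, Gnl3l. Both tests of a difference between ages gave 0 calls in all 21 alternatives each. The count at an unadjusted p under 0.05, 671 in the report, ran from 235 to 1222 when 1 array was left out and from 216 to 2657 over the other settings. The cause was not tested. No paired analysis was possible because the animal numbers in the labels are all different and pair no samples between groups. With 3 J20 arrays, 1 of which stood apart, small differences and dim probes cannot be resolved.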
